A study of Mus musculus with 9 samples.

Results

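Fatty acid synthesis and desaturation genes were examined in whole livers of female mice by RNA sequencing. The set holds 10 genes of the 55401 in the deposited table, taken by symbol with earlier results of these data known: *Acly*, *Acaca*, *Acacb* and *Fasn* of synthesis, *Scd1* and *Scd2* of desaturation, *Elovl6* and *Elovl7* of elongation, and the transcription factor genes *Srebf1* and *Mlxipl*. All 10 were found once and passed the filter on low counts, as 15717 genes did. There were 3 livers in each of 3 groups. The mice were 6 weeks old at the start. Healthy livers came from mice that the labels describe as WT and without treatment, and their age at collection is not given. Both HCC groups were WT mice given activated AKT (pT3-EF1α-HA-myr-AKT) and Nras-v12 (pT/Caggs-Nras-v12) with the sleeping beauty transposase by hydrodynamic tail vein injection. After 1 week, one group was given AAV8 with miR-22, here called miR-22-treated HCC, and the other AAV8 blank control, here untreated HCC, and livers were collected 4 weeks later. The labels give 1 dose of 1e12 GC/kg of either virus, and the methods of the study a higher one. The oncogenes were driven by EF1α and Caggs promoters that are not limited to hepatocytes, miR-22 by a CMV promoter in a vector that also carried GFP, and healthy mice are not described as having received any injection, so tumor, injection and virus cannot be told apart in a comparison with healthy livers. The growth protocol also lists a pT3-EF1α-N90-β-catenin plasmid, whereas the series design names RAS and AKT. The strain is C57BL/6 in one field of the labels and FVB/N in another, and the methods of the study name FVB/N for all 3 groups and RAS/AKT for both HCC groups.

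Fatty acid synthesis makes palmitate in the cytosol: ATP citrate lyase (*Acly*) supplies acetyl-CoA, the acetyl-CoA carboxylases (*Acaca*, *Acacb*) make malonyl-CoA, and fatty acid synthase (*Fasn*) builds the chain. Elongases of the ELOVL family lengthen it in the endoplasmic reticulum, and stearoyl-CoA desaturases (*Scd1*, *Scd2*) place a double bond to make oleate and palmitoleate. In the liver, insulin drives the pathway through SREBP-1c (from *Srebf1*) and sugars drive it through ChREBP (from *Mlxipl*), and *Scd1* is the main hepatic desaturase whereas *Scd2* is best known from brain and from fetal and neonatal tissue.

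The agent of treatment, miR-22, pairs with messages mainly through bases 2 to 8, and these are set in capitals in its mature form, which is listed with the only matches to them in the 3′ UTRs of the 10 genes. A match to all of these bases was found in *Acly* and *Elovl6*, 2 of 10 genes, and in 13.6% of the 21561 genes with an annotated 3′ UTR. A longer 3′ UTR has more places for a match. The 10 genes had 3′ UTRs of 836 to 5008 bases, against a median of 1020 over all genes, so these shares are not alike. The *Acly* match starts at base 821 of its 3′ UTR (window chr11:100367234-100367263, minus strand) and the *Elovl6* match at base 139 (window chr3:129427264-129427293, plus strand), both in GRCm39, and in both the capitals mark the bases opposite the seed.
mmu-miR-22-3p: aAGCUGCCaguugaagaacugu
Acly 3′ UTR: caaagattctgGGCAGCTgccacctcagtc
Elovl6 3′ UTR: acgaggcccaaGGCAGCTtgggactgaaga
Neither window has an adenine after the match. The mature sequence is RefSeq's on GRCm38.p6, and a match describes the letters and not a site in use.

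Healthy libraries held 18258660 to 20964551 counts, untreated ones 18293676 to 23908392 and treated ones 16664659 to 20459853. Counts are given after TMM scaling to the mean effective library size (normalized counts). The TMM factors differed by group: 0.865 to 0.872 in healthy, 1.12 to 1.22 in untreated and 0.942 to 1.03 in treated libraries. Normalized counts therefore do not follow shares of all counts between groups. Libraries of a group differed by more than counting noise in every pair, and none was counted as a repeat of another. This cannot tell separate mice from separate libraries of the same liver. Each sample was taken as a liver of its own from its label. The labels do not give litters or days, and p-values measure the spread between these livers alone.

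In untreated HCC the pathway did not move one way. Of the 10 genes, 3 rose (*Scd1*, *Scd2* and *Elovl7*) and 5 fell (*Acacb*, *Fasn*, *Elovl6*, *Srebf1* and *Mlxipl*), whereas *Acly* and *Acaca* did not pass the thresholds, an adjusted p under 0.05 in edgeR's quasi-likelihood test and a fold change over 1.5. Over all tested genes, 40.8% were called, 22.7% higher and 18.1% lower. The size of the falls depends on the TMM scaling. As shares of all counts, healthy and untreated livers overlapped for *Fasn* and *Elovl6*, and did not for *Acacb*, *Srebf1* and *Mlxipl*. The median log2 fold change of the 10 genes was −0.54, against 0.01 over all genes. With miR-22, *Scd2* and *Elovl7* were reduced and *Mlxipl* and *Acacb* were increased compared with untreated HCC, and the other 6 genes were not called. Of all genes, 13.8% were called in that comparison, 8.32% higher and 5.47% lower, and the median log2 fold change was 0.28 for the 10 genes and 0.00199 for all. Both comparisons use the same untreated livers.

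**Figure D1:**
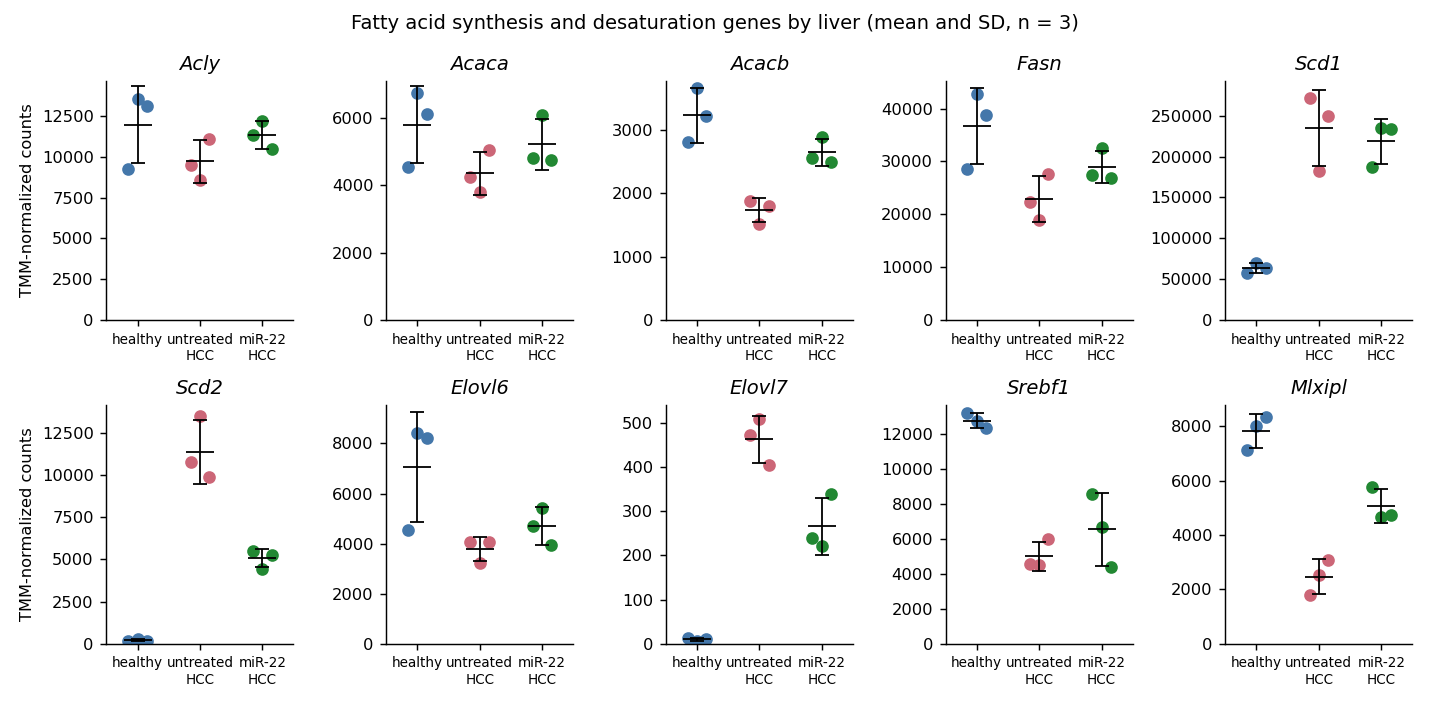
TMM-normalized counts (linear axis from 0) of the 10 genes in each liver, grouped as healthy, untreated HCC and miR-22-treated HCC; points are livers in order of replicate number, and bars are the mean and SD (n = 3). Scd2 and Elovl7 lie near the axis in healthy livers, are highest in untreated HCC and intermediate with miR-22, whereas Scd1 is high in both HCC groups and Mlxipl is lowest in untreated HCC.

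Of the 4 enzyme genes that feed and run palmitate synthesis, *Fasn* and *Acacb* fell in untreated HCC and *Acly* and *Acaca* were not called. *Acly* (chromosome 11 of GRCm39, as are the gene coordinates that follow, 100367165 to 100440756) had 9250, 13549 and 13125 normalized counts in healthy livers 1, 2 and 3, 9475, 8560 and 11118 in untreated HCC 2, 3 and 4, and 11355, 12193 and 10459 in miR-22-treated HCC 2, 3 and 4. The groups overlapped in each comparison. As shares of all counts, healthy livers had 0.0415% to 0.0604% and untreated livers 0.0539% to 0.0642%. The log2 fold change was −0.30 in untreated HCC against healthy livers (standard error 0.152, adjusted p = 0.111) and 0.22 with miR-22 (adjusted p = 0.324, edgeR), with approximate 95% intervals of −0.60 to −0.0025 and −0.077 to 0.52. The first interval leaves out 0 although the unadjusted p of edgeR's test was 0.0708, as the intervals are narrower than that test implies.

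*Acaca*, the cytosolic carboxylase, had 4542, 6751 and 6116 normalized counts in healthy livers, 4253, 3795 and 5056 in untreated HCC and 4805, 6092 and 4766 in miR-22-treated HCC. Its log2 fold change in untreated HCC was −0.41 (standard error 0.159), which passed the adjusted p (0.0430) but not the fold threshold, and the groups overlapped through healthy liver 1. With miR-22 it was 0.26 (approximate 95% interval −0.054 to 0.57). *Acacb* (chromosome 5, 114284307 to 114388822) encodes the carboxylase at the mitochondrial outer membrane, whose malonyl-CoA restrains the entry of fatty acids into mitochondria. It had 2805, 3662 and 3216 normalized counts in healthy livers, 1874, 1519 and 1798 in untreated HCC and 2550, 2885 and 2494 in miR-22-treated HCC. Untreated livers lay below every liver of the other groups, whereas treated and healthy livers overlapped. As shares of all counts, healthy livers had 0.0126% to 0.0163% and untreated livers 0.00956% to 0.0111%. The log2 fold change was −0.90 in untreated HCC (standard error 0.118, adjusted p = 3.32e-05) and 0.61 with miR-22 (standard error 0.118, adjusted p = 0.00324, edgeR). This second value is a 1.53-fold rise, just past the fold threshold, and it was 0.52 without untreated replicate 3 and 0.54 without miR-22-treated replicate 3, both under that threshold.

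*Fasn* (ENSMUSG00000025153.9, chromosome 11, 120696672 to 120715995) had 28644, 42675 and 38749 normalized counts in healthy livers, 22294, 18858 and 27566 in untreated HCC and 27465, 32500 and 26842 in miR-22-treated HCC. The lowest healthy liver stood just above the highest untreated liver, and treated livers overlapped with both groups. As shares of all counts, healthy livers (0.129% to 0.190%) and untreated livers (0.119% to 0.159%) overlapped, so this separation rests on the scaling. *Fasn* fell by 0.68 on the log2 scale in untreated HCC (standard error 0.176, adjusted p = 0.00536), a 1.60-fold difference, and the value was −0.56 without healthy replicate 2 and −0.55 without untreated replicate 3, again under the fold threshold. With miR-22 the log2 fold change was 0.34 (standard error 0.176, adjusted p = 0.189, edgeR), with an approximate 95% interval of −0.0070 to 0.68.

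The desaturases moved the other way. *Scd1* (ENSMUSG00000037071.3, chromosome 19, 44382894 to 44399154) had 57387, 70107 and 63145 normalized counts in healthy livers, 271460, 182090 and 250102 in untreated HCC, and 187123, 234631 and 233648 in miR-22-treated HCC. Every HCC liver lay far above every healthy liver, and the HCC groups overlapped. The rise in untreated HCC was 3.69-fold (log2 fold change 1.88, standard error 0.189, adjusted p = 3.49e-06). With miR-22 the log2 fold change was −0.10 (standard error 0.183, adjusted p = 0.729, edgeR), with an approximate 95% interval of −0.46 to 0.26. In miR-22-treated HCC, *Scd1* was thus still 3.44-fold above healthy livers (log2 fold change 1.78, adjusted p = 1.70e-05). Of all counts, its reads made up 0.258% to 0.312% when healthy, 1.15% to 1.61% when untreated and 0.959% to 1.24% when treated. These shares are before TMM scaling and so do not give the 3.69-fold rise of the scaled counts.

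*Scd2* (ENSMUSG00000025203.6, chromosome 19, 44281613 to 44295303) lies in the same cluster of desaturase genes. It had 183, 263 and 165 normalized counts in healthy livers, 10789, 13512 and 9876 in untreated HCC and 5512, 4463 and 5269 in miR-22-treated HCC. No liver of any group overlapped with another group. The rise in untreated HCC was 56.0-fold (log2 fold change 5.81, standard error 0.203, adjusted p = 3.93e-09), and treated livers were 2.24-fold lower than untreated ones (log2 fold change −1.16, standard error 0.163, adjusted p = 6.08e-04) but 25.0-fold higher than healthy ones (log2 fold change 4.64, adjusted p = 2.68e-08, edgeR).

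*Scd1* and *Scd2* share 253 stretches of 31 bases in the transcripts annotated today, 3.45% of those of *Scd1* and 3.21% of those of *Scd2*, so the authors' counting could have split reads between them. Healthy livers had 47053 to 59240 counts of *Scd1* and 150 to 215 of *Scd2* before scaling. A small part of the *Scd1* reads could thus alter the healthy level of *Scd2*, and its fold changes against healthy livers are uncertain to that extent. *Scd2* took 0.318%, 0.373% and 0.261% of the counts of both genes in healthy livers, 3.82%, 6.91% and 3.80% in untreated HCC, and 2.86%, 1.87% and 2.21% in miR-22-treated HCC. Its share was therefore higher in each HCC liver than in each healthy liver, and lower in each treated than in each untreated liver. The mean log2 ratio of *Scd2* to *Scd1* was −8.31 ± 0.26 (SD, n = 3) in healthy livers, −4.36 ± 0.52 in untreated HCC and −5.42 ± 0.32 in miR-22-treated HCC, and the differences of 3.95 and −1.07 each had p = 0.1 in a two-sided exact permutation test, the smallest that 3 livers against 3 can give. The same cluster holds *Scd3*, with 0 counts in each healthy liver, 32, 46 and 71 in untreated HCC and 12, 12 and 16 in miR-22-treated HCC. It was at least 11.5-fold higher in untreated HCC, set against a floor of 3 counts per library, and fell by 1.49 on the log2 scale with miR-22 (standard error 0.370, adjusted p = 0.0155, edgeR). Its adjusted p was above 0.05 when untreated replicate 3 (0.0543) or 4 (0.0684), or treated replicate 2 (0.0549) or 3 (0.0579), was left out. *Scd3* shares 8.12% of its stretches with *Scd1* and 7.52% with *Scd2*, so its low count is uncertain. *Scd4* had at most 5 counts in any library.

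**Figure D2:**
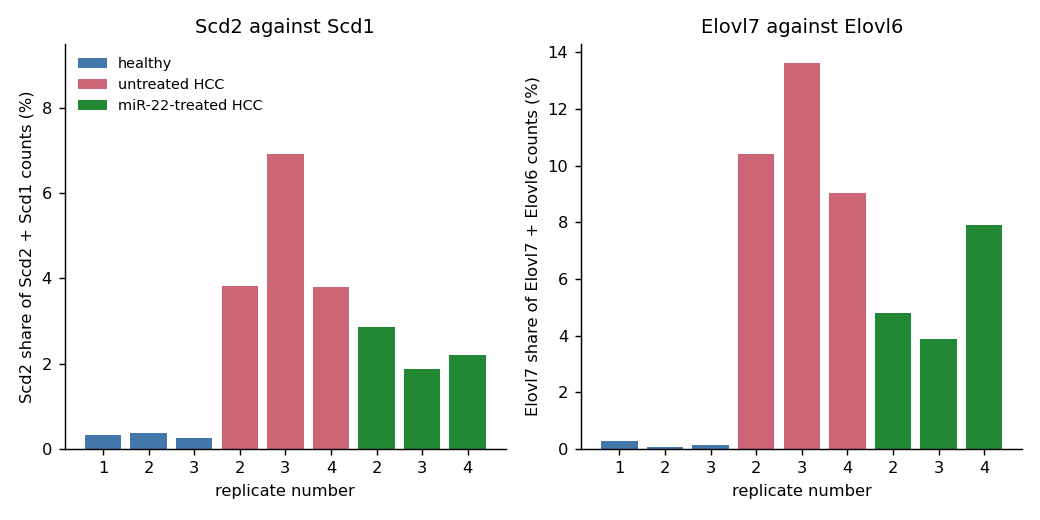
Share of Scd2 in the counts of Scd2 and Scd1 (left) and of Elovl7 in the counts of Elovl7 and Elovl6 (right), in percent, 1 bar per liver with its replicate number. Both shares are under 0.4% in healthy livers, highest in untreated HCC and lower in every treated liver than in every untreated liver.

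Of the elongase genes, *Elovl6* fell and *Elovl7* rose in untreated HCC. *Elovl6* (chromosome 3, 129326004 to 129432144), which takes palmitate to stearate, had 4546, 8436 and 8205 normalized counts in healthy livers, 4072, 3234 and 4071 in untreated HCC and 4718, 5438 and 3940 in miR-22-treated HCC. Healthy liver 1 stood near the HCC livers, and no untreated liver reached it. As shares of all counts, healthy livers (0.0204% to 0.0376%) and untreated livers (0.0204% to 0.0242%) overlapped. The log2 fold change was −0.90 in untreated HCC (standard error 0.206, adjusted p = 0.00243) and 0.31 with miR-22 (adjusted p = 0.306, edgeR).

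*Elovl7* (ENSMUSG00000021696.9, chromosome 13, 108350937 to 108423639), an elongase of long saturated and polyunsaturated chains, had 10, 5 and 10 counts in healthy livers before scaling. Its normalized counts were 12.2, 6.11 and 10.7 there, 473, 510 and 405 in untreated HCC, and 239, 220 and 339 in miR-22-treated HCC, with no overlap between groups. The rise in untreated HCC was 47.1-fold (log2 fold change 5.56, standard error 0.257, adjusted p = 1.27e-08), and treated livers were 1.73-fold lower than untreated ones (log2 fold change −0.79, standard error 0.171, adjusted p = 0.00593, edgeR). With a replicate block, the fall with miR-22 was not called (−0.82, adjusted p = 0.0576, edgeR). *Elovl6* and *Elovl7* share no stretch of 31 bases. *Elovl7* made up 0.0724% to 0.268% of the counts of the pair in the healthy group, 9.05% to 13.6% in the untreated group and 3.89% to 7.92% in the treated group.

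Both transcription factor genes fell in untreated HCC, and *Mlxipl* was called higher with miR-22 whereas *Srebf1* was not. *Srebf1* (ENSMUSG00000020538.15, chromosome 11, 60089913 to 60113407) had 13224, 12764 and 12324 normalized counts in healthy livers, 4576, 4496 and 5975 in untreated HCC, and 8582, 6676 and 4367 in miR-22-treated HCC. Every HCC liver was below every healthy liver, and the treated livers were the most widely spread, with a coefficient of variation of 32.3% against 3.52% in healthy livers. The log2 fold change was −1.35 in untreated HCC (standard error 0.201, adjusted p = 9.39e-05) and 0.38 with miR-22 (standard error 0.198, adjusted p = 0.185, edgeR). Treated replicate 4 decided this second call: without it the value was 0.61 (adjusted p = 0.0106). The counts per gene do not separate the SREBP-1a and SREBP-1c transcripts, nor the alpha and beta transcripts of *Mlxipl*.

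*Mlxipl* (ENSMUSG00000005373.13, chromosome 5, 135118744 to 135168615) had 7110, 8004 and 8344 normalized counts in healthy livers, 1792, 2516 and 3068 in untreated HCC and 5778, 4669 and 4732 in miR-22-treated HCC, without overlap between any of the groups. Its log2 fold change was −1.67 in untreated HCC (standard error 0.170, adjusted p = 4.09e-06) and 1.04 with miR-22, a 2.06-fold rise (standard error 0.168, adjusted p = 0.00121, edgeR). The mean log2 ratio of *Mlxipl* to *Srebf1* was −0.71 ± 0.17 (SD, n = 3) in healthy livers, −1.05 ± 0.27 in untreated HCC and −0.32 ± 0.38 in miR-22-treated HCC. The difference between the HCC groups was 0.73 (p = 0.1, two-sided exact permutation test, the smallest possible here, so a difference between both responses to miR-22 is not shown), and that between untreated HCC and healthy livers was −0.34 (p = 0.2).

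**Figure D3:**
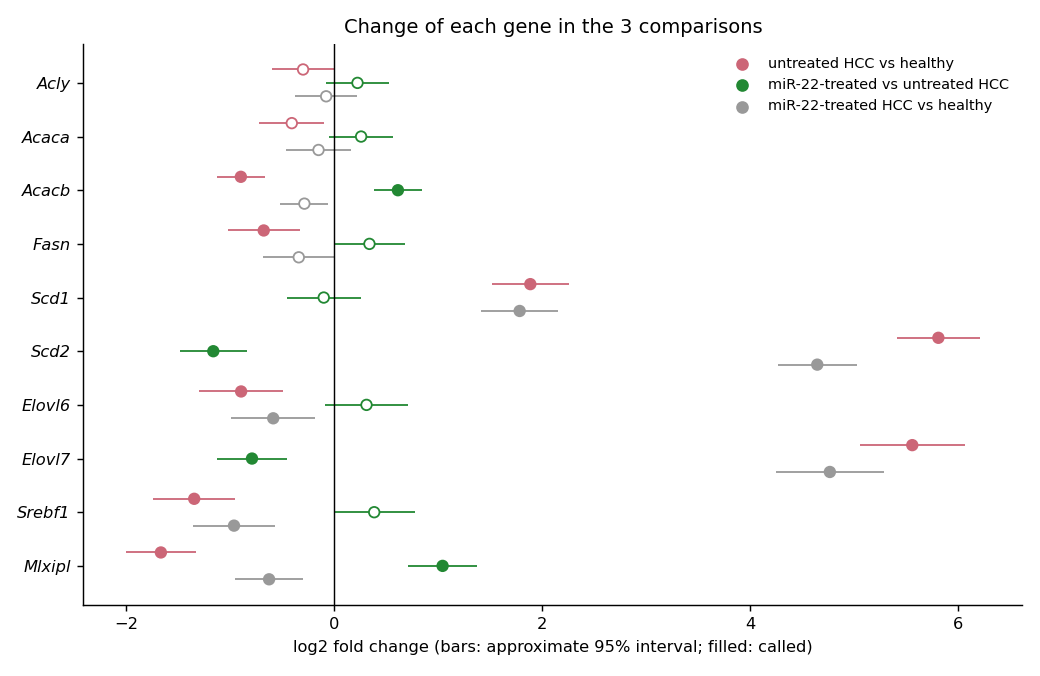
Log2 fold change of each gene in the 3 comparisons (horizontal axis), with bars of approximate 95% intervals; filled points passed an adjusted p of 0.05 and a fold of 1.5 in edgeR's test. Scd2 and Elovl7 stand beyond 4.6 against healthy livers in both HCC groups, and the other genes lie between −1.7 and 1.9.

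Compared with healthy livers, miR-22-treated livers still had *Scd1*, *Scd2* and *Elovl7* called higher and *Elovl6*, *Srebf1* and *Mlxipl* called lower, 6 of 10 genes. Of all tested genes, 24.0% were called in this comparison, 16.9% higher and 7.05% lower. *Elovl7* was 27.2-fold higher (log2 fold change 4.76, standard error 0.264, adjusted p = 1.13e-07), *Srebf1* fell by 0.97 (standard error 0.199, adjusted p = 0.00237) and *Mlxipl* by 0.63 on the log2 scale (standard error 0.166, adjusted p = 0.0107, edgeR). The fall of *Mlxipl* was 0.57 without treated replicate 3 and 0.58 without treated replicate 4, both under the fold threshold. That of *Elovl6* was 0.59 (adjusted p = 0.0399), and its call was lost in 9 of 16 alternatives, among them leaving out healthy replicate 2 (−0.45) or 3 (−0.48), untreated replicate 2 (−0.59, adjusted p = 0.0540) and treated replicate 2 (−0.60, adjusted p = 0.0779) or 4 (−0.48). *Fasn*, *Acaca*, *Acacb* and *Acly* had log2 fold changes of −0.34, −0.15, −0.29 and −0.079, with adjusted p from 0.0722 to 0.721.

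Levels of different genes were compared as CPM (counts scaled to library size) per kilobase of the canonical transcript, since long transcripts gather more reads. In healthy livers, *Scd1* led with 652 ± 65.3 (SD, n = 3), followed by *Fasn* (175 ± 34.6), *Srebf1* (152 ± 5.35), *Acly* (140.0 ± 27.7) and *Mlxipl* (111 ± 9.03), of which neighbours did not differ beyond their spread. *Elovl6* (59.3 ± 18.3), *Acaca* (31.4 ± 6.16) and *Acacb* (18.3 ± 2.43) came next, and *Scd2* (1.92 ± 0.49) and *Elovl7* (0.092 ± 0.030) last. In untreated HCC, *Scd1* reached 2406 ± 479, and *Scd2*, at 108 ± 17.9, stood level with *Acly* (114 ± 15.2) and *Fasn* (109 ± 21.0). *Srebf1* (59.6 ± 9.88), *Mlxipl* (34.8 ± 9.07) and *Elovl6* (31.9 ± 4.06) followed, and the last pair did not differ beyond their spread. In miR-22-treated HCC, *Scd2* (48.0 ± 5.19) ranked below *Fasn* (138 ± 14.8), *Acly* (132 ± 10.1), *Srebf1* (77.7 ± 25.1) and *Mlxipl* (71.7 ± 8.82).

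Within the healthy group, replicate 1 had the lowest level of *Acly*, *Acaca*, *Acacb*, *Fasn*, *Scd1*, *Elovl6* and *Mlxipl* and the highest of *Srebf1* and *Elovl7*. The coefficient of variation in healthy livers was 32.8% for *Elovl7*, which had few counts, 30.9% for *Elovl6*, 25.5% for *Scd2*, 19.8% for *Acly*, 19.7% for *Fasn* and 19.6% for *Acaca*. Without that liver, the calls of these genes in untreated HCC against healthy livers were as with it.

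The pathway beyond the 10 genes was described with 6 lists of 77 other genes, of which 75 were tested. In untreated HCC, 11 of them rose (14.7%, against 22.7% of all tested genes) and 28 fell (37.3%, against 18.1%), a median log2 fold change of −0.29. With miR-22, 11 rose (14.7%, against 8.32%) and 2 fell (2.67%, against 5.47%) compared with untreated HCC, a median of 0.15, and the 17.3% called in all were near the 13.8% of all tested genes. The count moved with the settings: 5 rose and 0 fell with a replicate block, and 19 rose and 4 fell without a fold threshold. Against healthy livers, 13 were called higher (17.3%, against 16.9%) and 10 lower (13.3%, against 7.05%) in miR-22-treated HCC. This balance turned to 12 higher and 15 lower without healthy replicate 3. These shares over all genes are also the ones to read beside the counts of the single lists, which hold 7 to 19 tested genes each.

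The list of genes that control SREBP and ChREBP had 8 members lower, 2 higher and 9 not called in untreated HCC (median −0.31). *Thrsp*, which encodes the lipogenic protein Spot 14, had 27671, 40150 and 40812 normalized counts in healthy livers, 2154, 1964 and 2631 in untreated HCC, and 10787, 17809 and 10608 in miR-22-treated HCC, with no overlap between groups. Its log2 fold change was −4.01 in untreated HCC (standard error 0.240, adjusted p = 6.68e-08) and 2.54 with miR-22 (standard error 0.225, adjusted p = 3.41e-05, edgeR). *Scap*, the escort that carries SREBPs out of the endoplasmic reticulum, was 2.83-fold lower in untreated HCC and rose by 0.71 on the log2 scale with miR-22 (0.57 without untreated replicate 2 and 0.58 without treated replicate 2, both under the fold threshold). *Insig1*, the anchor that retains them, fell by 1.75, whereas *Insig2* rose by 1.04 in untreated HCC. Against healthy livers, *Thrsp* (−1.47), *Mid1ip1* (−1.31), which encodes a relative of Spot 14, and *Insig1* (−1.20) were the lowest of this list in miR-22-treated HCC, and *Scap* (−0.79) was also called lower and *Pparg* (1.55) and *Insig2* (1.06) higher. With miR-22, *Insig1* had a log2 fold change of 0.55 (adjusted p = 0.0656, edgeR). *Ppargc1b*, a coactivator of SREBP-1, fell by 1.82 and rose by 1.60 with miR-22, and *Nr1h3*, which encodes LXRα, fell by 0.82. *Pparg* rose by 1.53 in untreated HCC, and its value with miR-22 was 0.02. *Mlx*, the partner of ChREBP, and *Srebf2* were not called in untreated HCC, with log2 fold changes of −0.22 and −0.35.

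Among other elongation and desaturation genes, 2 rose and 4 fell in untreated HCC, 9 were not called, and *Elovl4* and *Scd4* were too low to test (median −0.13). *Scd3* and *Fads3* (0.97) rose, and *Elovl3* (−1.67), *Fads1* (−1.06), *Hacd3* (−0.79) and *Fads6* (−0.62) fell. *Elovl1*, *Elovl2*, *Elovl5* and *Fads2*, the last being the delta-6 desaturase of polyunsaturated fatty acids, had log2 fold changes from −0.36 to 0.39 and were not called. *Scd3* was the 1 member called with miR-22 against untreated HCC, and against healthy livers *Fads3* (0.85) and *Hsd17b12* (0.59) were called higher beside it and *Fads6* (−0.59) lower in miR-22-treated HCC. *Hsd17b12* was under the fold threshold without healthy replicate 1 or 2 or treated replicate 3 or 4 (0.50 to 0.58), and *Fads6* without healthy replicate 2 (−0.58) or treated replicate 4 (−0.51).

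Of 9 genes that supply acetyl-CoA, malonyl-CoA and NADPH or remove them, 2 rose and 3 fell in untreated HCC (median −0.12). The risers, *G6pdx* (1.47) and *Pgd* (1.20), encode the NADPH-forming enzymes of the pentose phosphate pathway. *Acss2* (−1.25), which activates acetate, *Mlycd* (−1.03), which breaks down malonyl-CoA, and *Idh1* (−1.01) fell, and *Idh1* and *Acss2* each rose by 0.64 with miR-22. The call of *Idh1* was lost without untreated replicate 3 (0.57) or treated replicate 3 (0.55), and that of *Acss2* without untreated replicate 2 or 3 or treated replicate 2 or 3 (0.52 to 0.60, adjusted p from 0.0681 to 0.0817, edgeR). *Me1*, the malic enzyme, had a log2 fold change of 0.43 in untreated HCC, under the fold threshold, and was called higher in miR-22-treated HCC than in healthy livers (0.61, and 0.51 without healthy replicate 1 or 0.50 without treated replicate 3), as were *Pgd* (0.99) and *G6pdx* (0.96). In that comparison *Mlycd* (−0.62) and *Acss2* (−0.61) were called lower, and these calls were lost without healthy replicate 1 for *Mlycd* (−0.57) and without healthy replicate 2 (−0.51) or treated replicate 4 (−0.46) for *Acss2*.

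The list of other genes that answer to insulin and sugars had 4 members lower, 1 higher and 3 not called in untreated HCC (median −0.61). *Txnip*, a glucose-induced ChREBP target, fell by 1.25 and rose by 1.73 with miR-22, *Pklr* (−1.04), the liver pyruvate kinase, and *Khk* (−0.85), ketohexokinase, fell, and *Pnpla3* rose by 1.14. Against healthy livers, *Pnpla3* (1.61) was called higher and *Pklr* (−0.61) lower in miR-22-treated HCC, and *Pklr* was under the fold threshold without healthy replicate 2 or 3 or treated replicate 2 or 4 (−0.57 to −0.51). In the list of acyl-CoA activation and triglyceride synthesis, 4 members rose, 6 fell and 7 were not called (median −0.28). *Acsl1* (−1.74), *Lpin2* (−1.58) and *Dgat2* (−1.44) fell in untreated HCC, and *Mogat1* (3.99), *Mogat2* (1.93) and *Lpin3* (0.79) rose. With miR-22, 5 members of that list rose, among them *Lpin1* by 2.78 and *Lpin2* by 2.14, and *Lpin3* fell. *Lpin1* had 3318, 14097 and 5359 normalized counts in treated livers and 1056 to 1136 in untreated ones, and without treated replicate 3 its value was 1.98 (adjusted p = 5.20e-05, edgeR). Leaving out 1 library ended the calls of 3 members in these comparisons: *Mogat2* in untreated HCC without healthy replicate 1 (1.69, adjusted p = 0.0560) or untreated replicate 3 (1.68, adjusted p = 0.0538), *Lpin3* with miR-22 without treated replicate 2 (−0.58), and *Gpat3* with miR-22 (0.61) without untreated replicate 3 (0.54) or treated replicate 3 (0.50). Against healthy livers, *Mogat1* (3.87), *Mogat2* (2.05), *Lpin1* (1.51) and *Gpam* (0.70) were called higher in miR-22-treated HCC and *Acsl1* (−0.84) and *Dgat2* (−0.77) lower. *Lpin1* was 0.70 there without treated replicate 3, and the call of *Mogat2* was lost without healthy replicate 1 (1.80, adjusted p = 0.0666) or 3 (2.11, adjusted p = 0.0521) or treated replicate 2 (1.51, adjusted p = 0.0906, edgeR). The separate synthesis of fatty acids in mitochondria (7 genes) had 3 members lower, 4 not called and none higher in untreated HCC, among them *Cbr4* (−0.84), *Oxsm* (−0.83) and *Mcat* (−0.65), and no member was called with miR-22. *Mcat* was −0.55 without untreated replicate 3, under the fold threshold. At an unadjusted p under 0.05, edgeR gave 2 of the 7 with miR-22, and DESeq2 called 0 of them.

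**Figure D4:**
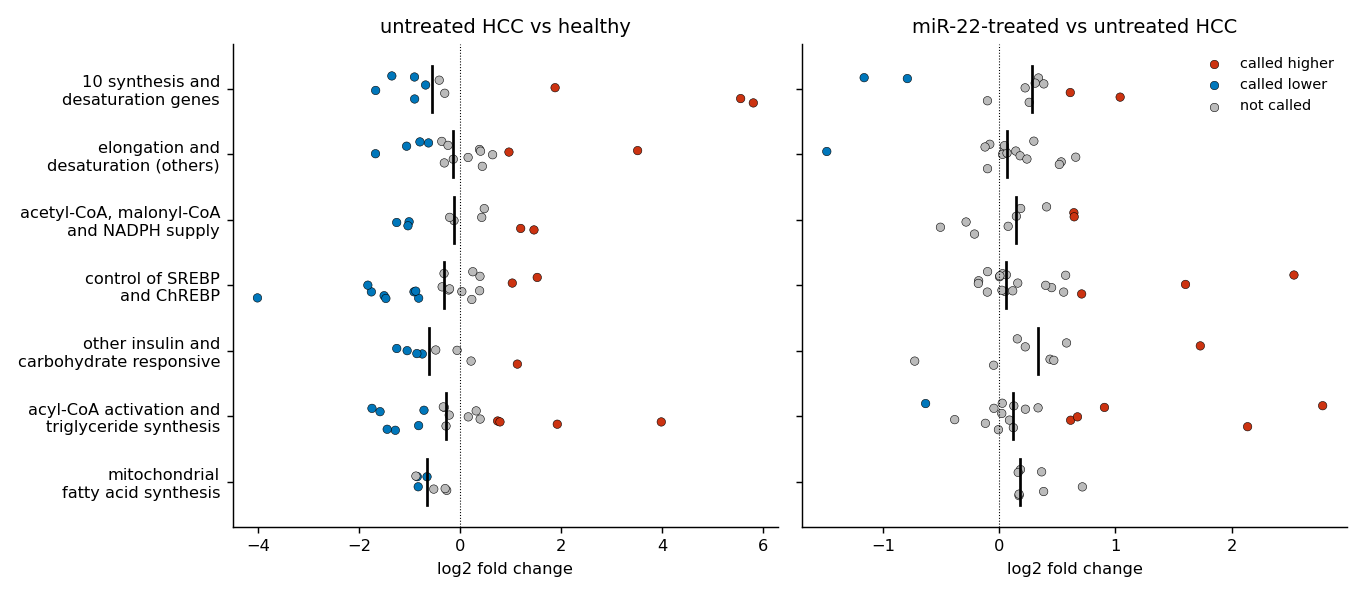
Log2 fold change (horizontal axis) of each tested gene of the 10 synthesis and desaturation genes and of the 6 other lists, in untreated HCC against healthy livers (left) and in miR-22-treated against untreated HCC (right). Each point is a gene, black lines are list medians, and Scd3 against healthy livers is drawn at its lower bound; Thrsp is the lowest point on the left, and the highest on the right is Lpin1, whose value of 2.78 was 1.98 without treated replicate 3.

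The genes whose levels over the 9 livers ran closest to 4 of the genes were found by the root mean square difference of centred log2 CPM, among 15707 other genes. They were *Acad8*, *Cd59a* and *Tmem14a* for *Fasn* (0.102 to 0.112), *Cyp1b1*, *Thbs1* and *Cd14* for *Scd2* (0.207 to 0.273), *Albfm1*, *Paxx* and *Lhpp* for *Srebf1* (0.134 to 0.139), and *Slc29a1*, *Tmem86b* and *Fmo1* for *Mlxipl* (0.143 to 0.156).

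RefSeq promoters, 250 bases before to 50 after a gene start on GRCm38.p6, were found for 8 of the 10 genes in 11 windows, and not for *Scd1* and *Scd2*. They were searched on both strands for a sterol response element (TCACNCCAC), an E-box (CACGTG), which ChREBP and USF proteins can bind, a CCAAT box (CCAAT) and a GC box (GGGCGG). Only exact matches were counted, so variant sites and sites outside the windows would be missed, and a window without a match does not show that a gene lacks a site. The sterol response element and the E-box were each found in 1 window, both of *Mlxipl*, at the starts of different transcripts, and in 1.24% and 7.15% of all 32851 promoters. The CCAAT box was in 6 of 11 windows and in 37.4% of all, and the GC box in 5 of 11 and 35.7%. The *Mlxipl* element starts 136 bases before the gene start (chr5:135106745-135106773, plus strand) and its E-box 98 bases before another (chr5:135089782-135089807, plus strand). *Fasn* held 3 CCAAT boxes, 2 of them overlapping, and the first, on the opposite strand, starts 90 bases before the gene start (chr11:120824623-120824647, minus strand). These are shown with the motif in capitals.
Mlxipl sterol response element: atcagtggttTCACACCACgctcactggt
Mlxipl E-box: ggctgccatcCACGTGctaaggagag
Fasn CCAAT box: gcgcgccgccATTGGgccaccgaga

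Marker genes of several cell types moved with the same groups. To be read beside their counts, 22.7% of all tested genes were called higher and 18.1% lower in untreated HCC. With miR-22 these shares were 8.32% and 5.47%. All 8 hepatocyte markers fell in untreated HCC (median log2 fold change −1.77), and their summed level was 127769 to 132678 CPM in the healthy group, 49688 to 62650 in the untreated group and 75841 to 94398 in the treated group. Of 6 bile duct markers, 5 rose in untreated HCC and 4 fell with miR-22, with sums of 29.5 to 42.1, 3340 to 6260 and 1568 to 2714 CPM. All 5 cell cycle markers rose in untreated HCC, with sums of 9.30 to 14.2, 139 to 178 and 87.0 to 129, and 4 of 7 stellate and fibroblast markers rose and 2 fell, with sums of 307 to 352, 828 to 977 and 676 to 794. With miR-22, 5 of the 8 hepatocyte markers rose and 3 of the 5 cell cycle markers fell. The stellate and fibroblast markers were mixed with miR-22, with 2 called higher and 1 lower. The 6 neutrophil markers summed to 0.38 to 1.82, 8.74 to 11.9 and 8.61 to 14.0, with *Ly6g* at 0 in healthy and untreated livers. For 7 macrophage markers the sums were 352 to 444 (healthy), 329 to 389 (untreated) and 412 to 438 (treated), and for 8 lymphocyte markers 5.38 to 8.55, 7.77 to 10.7 and 6.89 to 9.28. For 6 endothelial markers they were 329 to 414, 208 to 265 and 276 to 354. Treated livers were thus above every untreated liver in the macrophage and endothelial sums. Of the single markers, 0 of 7 macrophage and 1 of 6 endothelial markers were called with miR-22 against untreated HCC. The 7 adipocyte markers, chosen because fat tissue also makes fatty acids, summed to 2.24 to 7.65 CPM in any liver. Of these, 5 were too low to test. *Cidea*, with 0 counts in each healthy liver, was called at least 16.7-fold higher in untreated HCC (floor of 3 counts per library), and *Adrb3* fell by 3.11 on the log2 scale in untreated HCC and rose by 2.43 with miR-22. In whole liver, fewer cells of a type and less RNA per cell cannot be told apart, and the part of these cell types in the values of the 10 genes was not tested.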

How the data were processed

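Whole livers of 9 mice were sequenced from non-directional libraries, and the authors made the deposited raw counts per gene with Salmon and tximport on GRCm39. A deposited table of normalized values was not used. Counts were tested as deposited with edgeR's quasi-likelihood test (version 4.0.16; TMM scaling, filterByExpr, all 3 groups in 1 fit), with Benjamini-Hochberg adjustment over all 15717 tested genes, and a call needed an adjusted p under 0.05 and a fold over 1.5. Log2 ratios of gene pairs within a library were compared by two-sided exact permutation tests. Standard errors are the size of the log2 fold change over the square root of F, and approximate 95% intervals are 1.96 of them on each side. These intervals use a normal quantile and are narrower than the quasi-likelihood test implies. Intervals and floors cover the spread between these livers or counting error only. On simulated data for untreated HCC against healthy livers (12847 genes), 92 of 102 genes changed 2-fold and 98 of 98 changed 4-fold were called, with 8 false calls. The simulation gave every gene the same dispersion and changed 200 genes, whereas 6417 genes were called in the livers. Its rates therefore do not carry over to these data. DESeq2 (version 1.42.0), other scalings and filters, 2-group fits, a replicate block and leaving out each library were the alternatives. The members and lists were chosen with earlier results of these data known. Named were all members, all ELOVL, FADS and SCD genes, 12 set regulators and enzymes (1 of which is not reported here), and in each list up to 3 called genes with the largest rise and 3 with the largest fall per comparison. Reads without strand cannot be told apart from those of antisense genes. Feeding at collection is not given in the sources used here. The 3′ UTRs, transcripts and gene coordinates are from GENCODE on GRCm39, and promoters and miRNA from RefSeq on GRCm38.p6.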

Additional observations from a re-analysis of the deposited data

How the results depend on the processing

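Over 16 alternatives, the calls among the 10 genes numbered 7 to 9 for untreated HCC against healthy livers (8 as reported), 3 to 5 for treated against untreated livers (4) and 4 to 6 for treated against healthy ones (6). Of the 75 pathway genes, 36 to 41 (39), 5 to 17 (13) and 19 to 27 (23) were called. With a replicate block 5 pathway genes were called with miR-22 (5 higher, 0 lower) and 20 in treated against healthy livers (9 higher, 11 lower), and without a fold threshold, which these ranges leave out, 57 (20 higher, 37 lower), 23 (19 and 4) and 43 (18 and 25) were called in the same order of comparisons. Samples of the HCC groups with the same number did not deviate together (correlations −0.24 to −0.12), so the numbers were not taken to pair them. With the block, *Elovl7* had a log2 fold change of −0.82 with miR-22 (adjusted p = 0.0576, edgeR), and *Acaca* −0.59 in untreated HCC, which was called. The rise of *Acacb* with miR-22 was under the fold threshold in 5 alternatives, among them DESeq2 (0.58), its size factors (0.58) and upper-quartile scaling (0.57). Of values not called, 2 changed sign: *Acly* in miR-22-treated HCC against healthy livers was 0.0074 without healthy replicate 2 (−0.25 to 0.0074 over the libraries left out), and *Scd1* with miR-22 was 0.015 without untreated HCC replicate 2 (−0.26 to 0.015). None of the 8 log2 ratio differences (4 pairs, untreated HCC against healthy and treated against untreated livers) changed direction without any 1 library or as shares (56 values). *Elovl7* had under 10 counts in a healthy library and gave no value with that minimum in every library. Its 5 to 10 counts in healthy livers limit the precision of its fold change, and 3 livers a group limit all tests. The cause of these changes was not tested. Leaving out each library for the other pathway genes was chosen after seeing the data.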
